A study of Mus musculus with 20 samples.

Results

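Transcripts of 10 circadian clock genes were followed in the retina of Nrl-/- mice: Per1, Per2, Per3, Cry1, Bhlhe40, Nr1d1, Nr1d2, Dbp, Tef and Arntl, the last also known as Bmal1. The members were the genes to which the array annotation assigned 158 exon-level probe sets, out of 179496 probe sets of 15781 genes, and all 10 passed the filter on dim genes that left 11836 genes for testing. All 20 mice carried the Nrl-/- genotype on the C57Bl/6J strain, with 4 mice at each age of 1, 2, 4, 6 and 10 months, so every comparison is between ages of knockout mice and wild-type retina was not analysed here. Both retinas of a mouse made 1 sample and 1 array. Nrl encodes the transcription factor that makes rods out of photoreceptor precursors, and in its absence these cells become cones resembling the short-wavelength type, so the tissue is a model of a retina in which cones replace rods. The labels give neither the sex of the mice nor the hour at which retinas were taken.

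The circadian clock is a transcriptional feedback loop. The proteins of Arntl and Clock pair to activate genes through E-box sequences, the Per and Cry proteins return to repress that pair, and the Rev-erb receptors encoded by Nr1d1 and Nr1d2 repress Arntl in turn. Transcripts of most of these genes rise and fall each day in many tissues, the retina keeps a clock of its own, and Per1 and Per2 are also induced by light and by hormones, so a level at 1 sampling time is a point on a daily curve.

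Levels are log2 RMA intensities, in which 1 unit is a doubling, summarised per gene over its probe sets. The check of the tissue gave a level of the cone opsin gene Opn1sw between 13.5 and 13.8 on the 20 arrays. The level of Nrl lay between 5.97 and 6.53, with no wild-type array to set it against. The mean correlation of an array with the others was 0.985 to 0.993, lowest in 4 months replicate 4. Eif2s3y and Kdm5d, both Y-linked, were low (mean 4.00 to 4.42) on the 4 arrays of 2 months and on replicates 2 and 3 of 10 months, and high on the others (7.33 to 8.28). Pigment epithelium genes, which mark the cell layer behind the retina, had a mean log2 level of 8.57, 6.76, 7.85 and 8.22 on replicates 1 to 4 of 10 months, against 6.83 to 7.56 on the arrays of the younger ages. The mean level of lens genes was 6.51 to 7.05 at 1 month and 7.002 on replicate 2 of 6 months, and at most 6.16 on the other arrays.

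The clearest change among the clock genes came at 10 months. Per1, Per2, Cry1 and Bhlhe40 rose and Per3 fell against 1 month, and the 4 arrays of the ages did not overlap for any of these 5 genes. Tef also passed the test, with overlapping arrays. In all, 6 of the 10 members passed (5 higher, 1 lower) in limma with Benjamini-Hochberg adjustment over all genes at a threshold of 0.05, where 41.4% of all genes tested passed (20.6% higher and 20.8% lower) and 35.8% had arrays that did not overlap. The median change of the members was 0.13, against 0.04 over all genes tested, and the median size of change, whatever its sign, was 0.29 against 0.19. Since this is whole tissue, fewer cells of a type and less RNA per cell cannot be told apart.

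Per1 encodes a repressor of the loop that responds to light and glucocorticoids. Its log2 level was 10.72, 10.24, 10.07 and 10.15 on the arrays of 10 months, against 9.51, 9.50, 9.63 and 9.38 at 1 month. The lowest array of 10 months stood above the highest of every other age, and replicate 1 was the highest of all. The means were 10.30 ± 0.29 at 10 months and 9.50 ± 0.10 at 1 month (SD, n = 4 each), a difference of 0.79 ± 0.11 (SE), or 1.73-fold, with an adjusted p of 9.71e-06 in limma. All 29 Per1 probe sets were higher at 10 months, with differences from 0.26 to 1.06, and 26 of them passed the test over probe sets, in which 15.4% of all probe sets passed.

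Per2, the paralogous repressor, had log2 levels of 8.57, 8.16, 8.55 and 8.40 at 10 months, against 7.80, 7.92, 8.08 and 7.86 at 1 month. Replicate 2 of 10 months was the lowest of its age and the nearest to the younger arrays. The difference was 0.50 ± 0.08 (SE), or 1.42-fold, with an adjusted p of 8.00e-05 in limma. All 30 probe sets were higher and 14 passed.

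Per3, the third Period gene, moved the other way. Its log2 level was 9.31, 9.14, 9.08 and 9.14 at 10 months, against 9.66, 9.62, 9.67 and 9.54 at 1 month. The highest array of 10 months lay below the lowest array of every younger age, which was 9.33 at 6 months. The difference was -0.46 ± 0.06 (SE), or 0.728-fold, with an adjusted p of 6.35e-06 in limma. All 24 probe sets were lower at 10 months and 14 passed.

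Cry1 encodes the cryptochrome repressor that acts with the Period proteins. Its log2 level was 9.45, 9.54, 9.59 and 9.59 at 10 months, against 8.95, 9.03, 8.96 and 8.996 at 1 month. The groups were well apart. The difference was 0.56 ± 0.06 (SE), or 1.47-fold, with an adjusted p of 5.26e-07 in limma, and all 15 probe sets were higher and passed. Bhlhe40, also known as Dec1, encodes a repressor that binds E-boxes. Its log2 level was 9.92, 9.85, 9.90 and 9.94 at 10 months, against 9.31, 9.24, 9.26 and 9.21 at 1 month, so that the arrays within each age lay close together and the ages far apart. The difference was 0.65 ± 0.06 (SE), or 1.56-fold, with an adjusted p of 1.08e-07 in limma, and 8 of 8 probe sets were higher, 6 of them past the threshold.

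**Figure D1:**
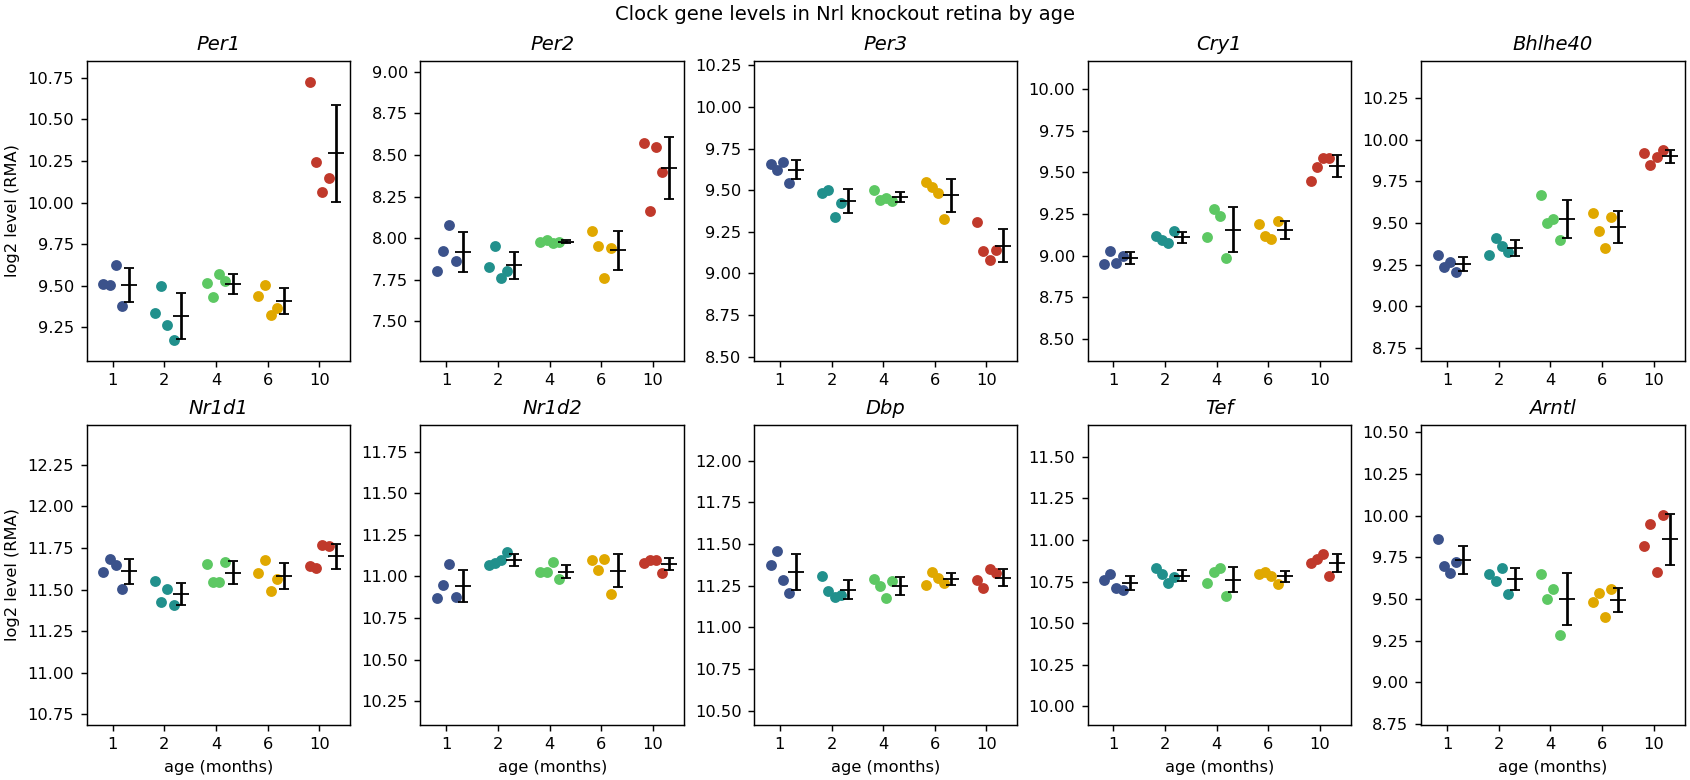
Log2 level of each clock gene on each of the 20 arrays (points, coloured by age in months), with the mean and SD of the 4 arrays beside them; every panel spans the same height on the log2 axis. Per1, Per2, Cry1 and Bhlhe40 stand higher and Per3 lower on the arrays of 10 months, while Dbp, Nr1d1 and Nr1d2 stay within a narrow band.

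The Rev-erb receptors and the output factors had smaller differences. Nr1d1 had log2 levels of 11.64, 11.63, 11.77 and 11.76 at 10 months, against 11.61, 11.68, 11.65 and 11.50 at 1 month. The ages overlapped, and the difference of 0.09 did not pass (95% interval -0.03 to 0.21). Nr1d2 had log2 levels of 11.08, 11.10, 11.10 and 11.02 at 10 months, against 10.87, 10.95, 11.07 and 10.88 at 1 month, with 1 array of 1 month reaching into the range of 10 months. Its difference was 0.13 (95% interval 0.02 to 0.24, adjusted p = 0.0602 in limma). Dbp, which encodes a transcription factor that carries the clock's rhythm to D-box sequences, had log2 levels of 11.28, 11.24, 11.35 and 11.33 at 10 months, against 11.37, 11.46, 11.28 and 11.21 at 1 month. The arrays overlapped fully, and the difference was -0.03 (95% interval -0.14 to 0.08). None of these 3 genes passed in any of the 7 comparisons between 2 ages. Those 7 did not include 10 months against 2 months. Nr1d1 read 11.63 to 11.77 at 10 months and 11.41 to 11.55 at 2 months, a difference that was not tested.

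Tef encodes a relative of Dbp. Its log2 level was 10.86, 10.88, 10.92 and 10.78 at 10 months, against 10.76, 10.79, 10.71 and 10.70 at 1 month. The lowest array of 10 months fell just inside the range of 1 month, and the difference of 0.12 ± 0.05 (SE) passed narrowly, with an adjusted p of 0.0449 in limma. Its adjusted p rose above the threshold in 6 of the 8 fits that dropped a single array of these ages, namely replicate 1, 3 or 4 of the younger and replicate 1, 2 or 3 of the older mice.

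Arntl, the activator of the loop, was high at both ends of the age series. Its log2 level was 9.82, 9.95, 9.66 and 10.00 at 10 months, against 9.86, 9.70, 9.66 and 9.72 at 1 month. These ages overlapped and the difference of 0.12 did not pass (95% interval -0.04 to 0.29). The arrays of 6 months read 9.48, 9.54, 9.39 and 9.56, all below every array of 10 months. Against 6 months the level at 10 months was 0.36 ± 0.08 (SE) higher, with an adjusted p of 0.00292 in limma. All 19 probe sets were higher and 4 passed.

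**Figure D2:**
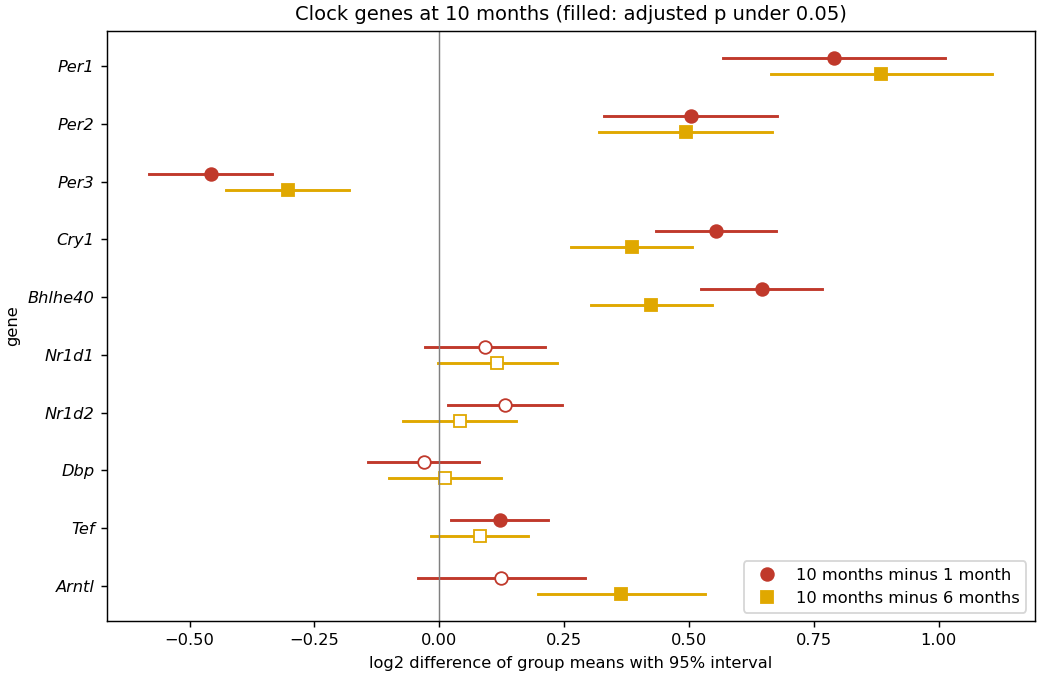
Difference in mean log2 level of each clock gene, 10 months minus 1 month (circles) and 10 months minus 6 months (squares), with 95% intervals; filled symbols have an adjusted p under 0.05. Per1, Per2, Cry1 and Bhlhe40 lie to the right of 0 and Per3 to the left in both comparisons, and Arntl passes against 6 months only.

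Against 6 months, 6 of the 10 members passed at 10 months (5 higher, 1 lower), where 20.3% of all genes tested passed (8.56% higher, 11.7% lower), and the same 6 had arrays that did not overlap, against 22.7% of all genes. The differences were 0.89 for Per1, 0.49 for Per2, 0.43 for Bhlhe40 and 0.39 for Cry1, and -0.30 for Per3. With each gene read from its brightest probe set alone, 4 members passed: Per2 then differed by 0.15 (adjusted p = 0.556 in limma) and Per3 by -0.18 (adjusted p = 0.202). Both comparisons share the arrays of 10 months.

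Between the younger ages the members moved less. At 2 months against 1 month, none passed in limma, where 8.52% of all genes did, although 4 members had an unadjusted p under 0.05, as did 2594 of the 11836 genes. At 4 months against 1 month, Bhlhe40 (0.27 ± 0.06, SE) and Cry1 (0.17 ± 0.06) passed, where 15.2% of all genes did. At 6 months against 1 month, Bhlhe40 (0.22 ± 0.06) and Cry1 (0.17 ± 0.06) were higher and Arntl (-0.24 ± 0.08) was lower, where 16.4% of all genes passed. The calls of Cry1 and Arntl at 6 months were each lost when any 1 of the 8 arrays was left out, and that of Cry1 at 4 months when any but replicate 4 of 4 months was. At 4 months against 2 months, none of the members passed and 0.127% of all genes did, with 2 members at an unadjusted p under 0.05. At 6 months against 4 months, 0 genes passed (0% of all genes), while the unadjusted p was under 0.05 for 531 and adjusted p-values of 0.895 or more. Over the 5 ages together, 7 of the 10 members passed limma's moderated F test, in which 38.4% of all genes passed. Nr1d2, Dbp and Tef did not, and Nr1d1 passed narrowly with an adjusted p of 0.0435.

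In the order of the age means, 10 months stood highest for Per1, Per2, Cry1 and Bhlhe40 and lowest for Per3. In each case its arrays did not overlap with those of the next age in the order. It also stood highest for Nr1d1, Tef and Arntl, with arrays that overlapped those of the next age. Neighbours in that order among the younger ages overlapped for all 10 members, except 2 months and 1 month for Cry1. Ages farther apart in the order were separate for Per3 at 2 months against 1 month and Per2 at 4 months against 2 months. So were Arntl, Bhlhe40 and Per3 at 4 months, and Arntl, Bhlhe40 and Cry1 at 6 months, each against 1 month. The share over all genes was not counted for these younger ages. In Cry1 the age means were 8.98, 9.11, 9.16, 9.15 and 9.54 at 1, 2, 4, 6 and 10 months. In Bhlhe40 they were 9.25, 9.35, 9.52, 9.47 and 9.90.

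**Figure D3:**
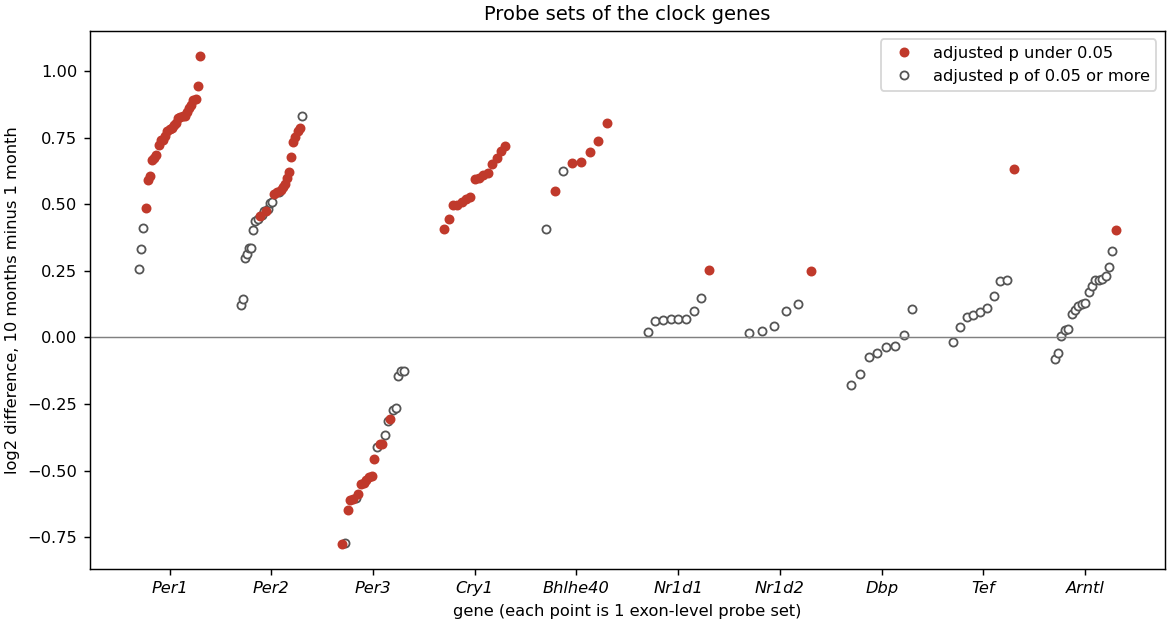
Log2 difference of each exon-level probe set, 10 months minus 1 month, for the 10 clock genes; filled points have an adjusted p under 0.05 over all probe sets. All 29 probe sets of Per1, 30 of Per2, 15 of Cry1 and 8 of Bhlhe40 lie above 0 and all 24 of Per3 lie below it.

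The promoters of Per1, Cry1 and Per3, which changed at 10 months, are shown. That of Nr1d1, which passed in none of the 7 comparisons of 2 ages, is shown beside them. They are given because E-boxes and D-boxes are the sequences through which the loop acts. RefSeq windows of 300 bases on GRCm38.p6, from 250 bases before the annotated start to 50 after it, were found for 8 of the 10 members, in 11 windows, and not for Per2 and Bhlhe40. Capitals mark the E-box CACGTG, its variant spelled CACGTT, and, for the output factors, the D-box, which reads TTATGTAA. All were searched on both strands, and a match on the other strand shows as its reverse complement.
Per1: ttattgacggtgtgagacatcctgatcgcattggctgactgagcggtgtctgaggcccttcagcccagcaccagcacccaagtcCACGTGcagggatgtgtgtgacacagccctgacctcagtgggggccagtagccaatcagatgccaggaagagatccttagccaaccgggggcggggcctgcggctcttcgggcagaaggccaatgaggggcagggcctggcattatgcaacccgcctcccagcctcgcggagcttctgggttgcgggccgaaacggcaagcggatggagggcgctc
Cry1: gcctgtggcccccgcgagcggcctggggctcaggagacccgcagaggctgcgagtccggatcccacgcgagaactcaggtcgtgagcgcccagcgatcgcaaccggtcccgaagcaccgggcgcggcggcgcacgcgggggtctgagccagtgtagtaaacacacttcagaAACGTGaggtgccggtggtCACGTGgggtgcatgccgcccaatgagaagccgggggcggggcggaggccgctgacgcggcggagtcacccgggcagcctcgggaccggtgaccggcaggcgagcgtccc
Per3: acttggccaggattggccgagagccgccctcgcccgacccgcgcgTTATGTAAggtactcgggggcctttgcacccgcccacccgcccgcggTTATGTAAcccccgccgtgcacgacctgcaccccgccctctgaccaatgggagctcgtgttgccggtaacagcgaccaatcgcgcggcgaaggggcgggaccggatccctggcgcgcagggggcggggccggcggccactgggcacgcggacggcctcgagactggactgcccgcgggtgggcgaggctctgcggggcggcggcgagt
Nr1d1: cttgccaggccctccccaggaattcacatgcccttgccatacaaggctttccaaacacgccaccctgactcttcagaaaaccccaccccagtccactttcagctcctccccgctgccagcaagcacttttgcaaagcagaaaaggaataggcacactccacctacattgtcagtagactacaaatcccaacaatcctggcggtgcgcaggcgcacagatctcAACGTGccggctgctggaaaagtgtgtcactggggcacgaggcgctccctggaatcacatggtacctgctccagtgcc
The Per1 window lies at chr11:69098699-69098998 on the plus strand, that of Cry1 at chr10:85185005-85185304 on the minus strand, that of Per3 at chr4:151044616-151044915 on the minus strand and that of Nr1d1 at chr11:98775328-98775627 on the minus strand. Counted from the start, the E-box began at position -166 in Per1 and at position -60 in Cry1, which also held the variant at position -79. Per3 held D-boxes at positions -205 and -158 and no E-box in this window, and Nr1d1 held the variant at position -28. The E-box was in 4 of the 11 windows, both of Tef among them, and in 7.15% of 32851 promoter windows of this length. The variant was in 2 of the 11 and in 4.68% of all, and the D-box in 0.938% of all. The second Per1 window, from a start further downstream, held none of these motifs. These matches describe the letters only.

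Other genes of the clock, 18 of 23 of which were on the array and tested, moved in part. At 10 months 7 were higher than at 1 month and 2 were lower, where 20.6% of all genes tested were higher and 20.8% lower. The median change was 0.10, against 0.04 over all genes tested. Fbxl21, an F-box gene linked to cryptochrome turnover, was higher by 0.51 ± 0.10 (SE), Bhlhe41, the paralogue of Bhlhe40, by 0.48 ± 0.07, and Nfil3, a repressor at D-boxes, by 0.43 ± 0.09. Hlf, a relative of Dbp and Tef, was higher by 0.39 ± 0.07, Npas2, a counterpart of Clock, by 0.23 ± 0.08, Prkaa2, a subunit of AMP-activated kinase, by 0.21 ± 0.06, and Csnk1e, a kinase of Period proteins, by 0.14 ± 0.05. Csnk1d, the related kinase, changed by -0.22 ± 0.05 and Btrc, which marks Period proteins for degradation, by -0.20 ± 0.06. The other 9, Clock, Rora and Rorb among them, did not pass. Of those that passed, Fbxl21 (5.84 at 1 month, 6.35 at 10 months) and Npas2 (6.22 and 6.45) had low mean levels. These lay not far above the filter on dim genes, at 5.61. Against 6 months, Bhlhe41, Nfil3 and Csnk1e were higher and Csnk1d was lower at 10 months, 3 and 1 of the 18 genes. In that comparison 8.56% of all genes tested were higher and 11.7% lower, 20.3% in all. At 6 months against 1 month Csnk1e was lower (-0.18 ± 0.05), so its direction differed between the ages. Hlf and Fbxl21 were already higher at 4 months (0.21 and 0.38) and 6 months (0.23 and 0.36).

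**Figure D4:**
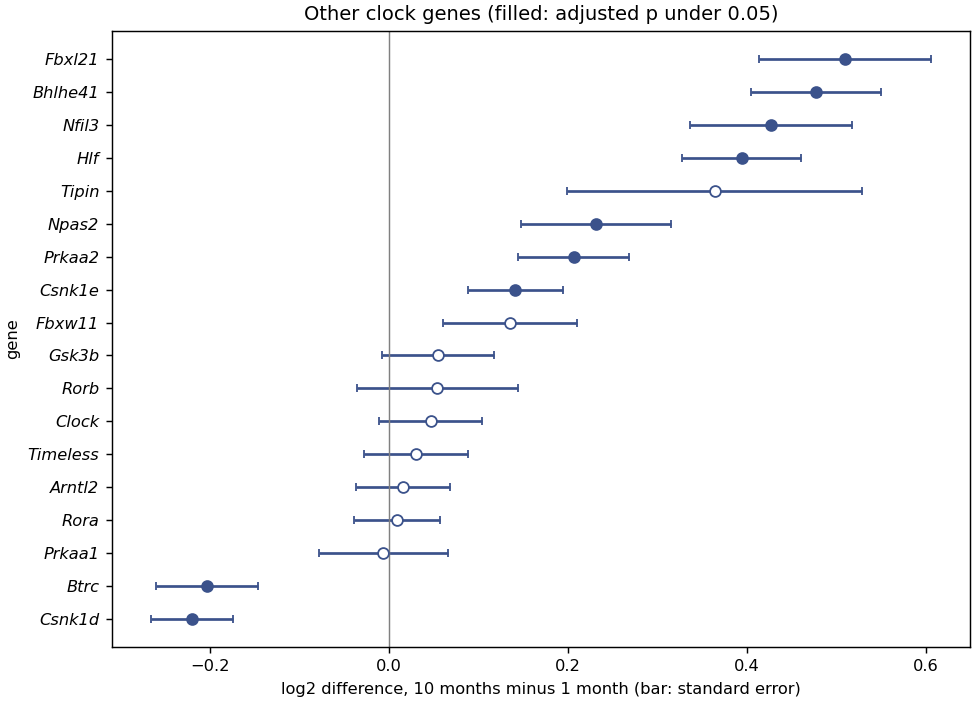
Log2 difference, 10 months minus 1 month, of 18 clock genes outside the 10 members, with standard errors; filled points have an adjusted p under 0.05. Fbxl21, Bhlhe41, Nfil3, Hlf, Npas2, Prkaa2 and Csnk1e lie above 0 and Btrc and Csnk1d below it.

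Of genes known as clock outputs, 15 of 19 tested were higher at 10 months than at 1 month and none was lower. Of all genes 20.6% were higher and 20.8% lower, and the median change of the list was 0.40. At 2, 4 and 6 months 2, 8 and 6 of the 19 were already higher than at 1 month. There 8.52%, 15.2% and 16.4% of all genes passed in either direction. At 10 months against 6 months 8 were higher and 1, Pfkfb3, was lower, where 8.56% of all genes were higher and 11.7% lower. This list shares Bhlhe41, Hlf and Nfil3 with the one above. Drd4, the dopamine receptor gene of photoreceptors, was higher by 1.31 ± 0.19 (SE), Coq10b by 1.02 ± 0.17 and Klf10 by 0.73 ± 0.12. Drd4 was already higher than at 1 month at 2 months (1.08 ± 0.19), 4 months (0.96 ± 0.19) and 6 months (1.05 ± 0.19). Of these ages, only 2 months also differed from 1 month in having low Y-linked genes. Against 6 months, Drd4 at 10 months differed by 0.26 ± 0.19 and did not pass (adjusted p = 0.347 in limma). Of 14 genes of light input and the melanopsin pathway, 6 were higher and 1, Creb1, was lower at 10 months, so 7 of 14 passed where 41.4% of all genes did. The largest were the kinase gene Sik1 (0.67 ± 0.18) and the immediate early genes Fos (0.59 ± 0.14) and Nr4a1 (0.51 ± 0.14). At 2, 4 and 6 months this list had 5, 4 and 5 lower members of 14 against 1 month and no higher one, where 8.52%, 15.2% and 16.4% of all genes passed in either direction. Of 7 glucocorticoid-responsive genes tested, Per1 included, 6 were higher at 10 months, where 20.6% of all genes were, led by Cdkn1a (1.76 ± 0.17) and Fkbp5 (0.91 ± 0.10). Of the cold-inducible list, Cirbp, whose RNA-binding protein responds to mild cooling, was higher by 0.76 ± 0.06, and Srsf5 changed by -1.71 ± 0.13. Both were lower than at 1 month at 2 and 4 months, and 1 of the 2 at 6 months. At those ages 8.52%, 15.2% and 16.4% of all genes passed in either direction. Rbm3, also of this list, was not on the array.

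Levels of other cell types moved beside these changes. Of 7 pigment epithelium genes tested, Rpe65 (0.98 ± 0.30, SE), Rgr (0.84 ± 0.30) and Lrat (0.70 ± 0.22) were higher at 10 months than at 1 month, where 20.6% of all genes were. Replicate 2 of 10 months had the lowest pigment epithelium mean of all arrays, 6.76. On that array alone, Per1 was 0.74 higher than the mean of 1 month, Bhlhe40 0.59, Cry1 0.55 and Per2 0.25 higher, and Per3 changed by -0.49. As 1 array has no spread of its own, only the sizes are given. With the pigment epithelium level as a covariate, Per1 (0.68), Per2 (0.38), Bhlhe40 (0.62), Cry1 (0.58) and Per3 (-0.50) all passed. Levels above those of all younger arrays occurred only at 10 months, so this fit cannot fully separate that level from age. The part of pigment epithelium in the clock gene values was not tested. A further fit kept only replicates 1 and 4 of 10 months, which were high in Y-linked genes like the arrays of 1 month. The values were 0.93 for Per1, 0.57 for Per2, 0.67 for Bhlhe40, 0.53 for Cry1 and -0.40 for Per3, again all past the threshold. Replicates 1 and 4 had the highest pigment epithelium means of all arrays (8.57 and 8.22), while replicate 2 was low in Y-linked genes (4.13). Neither choice of arrays therefore removed both differences from 1 month. The 8 microglia and macrophage genes differed by -0.23 (C1qb) to 0.01 (C1qa) between 10 months and 1 month, with adjusted p of 0.122 or more in limma. At 2 months 6 of the 8 were higher than at 1 month, and at 4 months 3 of 8 (Ctss, C1qa and Itgam). At 6 months 1 was higher and 1 lower than at 1 month. Of all genes, 8.52%, 15.2% and 16.4% passed in either direction at 2, 4 and 6 months. At 10 months 2 of 8 (Ctss and Itgam) were lower than at 6 months, where 11.7% of all genes were. The part of these cells in the clock gene values was not tested. Of 6 lens genes, 2 were lower at 10 months than at 1 month, where 20.8% of all genes were. Of 13 retinal genes, 4 were higher and 3 lower at 10 months, where 20.6% and 20.8% of all genes were. Rlbp1 changed by 0.62 ± 0.06, and Arr3 and Opn1mw of cones by -0.57 ± 0.07 and -0.46 ± 0.06.

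**Figure D5:**
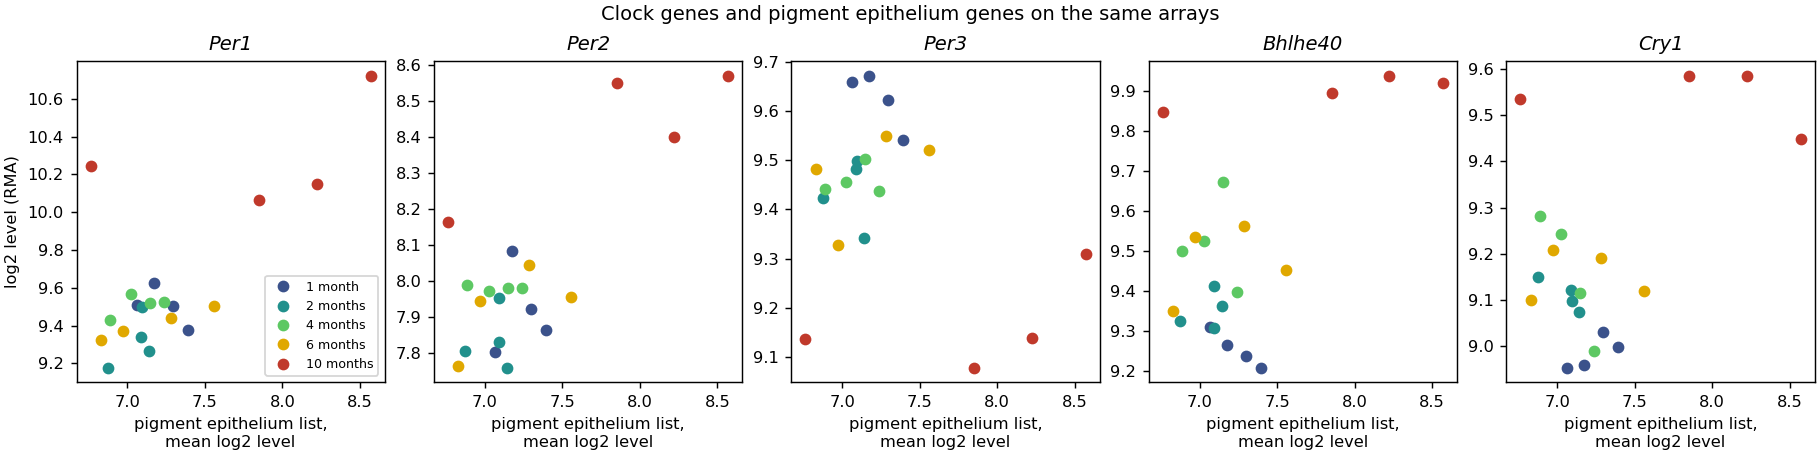
Log2 level of 5 clock genes (vertical) against the mean log2 level of the pigment epithelium genes (horizontal) on the 20 arrays, coloured by age. The array of 10 months at 6.76 on the horizontal axis has Per1, Per2, Bhlhe40 and Cry1 levels above, and a Per3 level below, all arrays of the younger ages.

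Within ages, Arntl was set against the rest of the loop. Each array's deviation from its age mean in Arntl was compared with that of the other 9 members over the 20 arrays, with 100000 permutations within ages and adjustment over the 9 pairs. None passed. With all arrays the largest was with Bhlhe40 (Pearson r = 0.58, permutation p = 0.0230, adjusted 0.207; Spearman rho = 0.49, permutation p = 0.0551, adjusted 0.40), and r was 0.52 without the 2 arrays farthest from the median in Arntl, 4 months replicate 4 and 10 months replicate 3. For the other 8, r over all arrays lay between -0.35 (Per2) and 0.27 (Cry1), with adjusted permutation p from 0.499 up. Without the same 2 arrays it lay between -0.54 (Nr1d2, -0.34 with all arrays) and 0.36 (Nr1d1, 0.00 with all arrays). Among pairs without Arntl, which were not tested, r of the deviations over the 20 arrays reached 0.75 for Per1 with Per3, 0.70 for Nr1d1 with Dbp and 0.51 for Tef with Cry1. Whether the hour of collection differed between mice or ages was not tested, as the labels do not give it.

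The genes outside all lists whose level followed that of Arntl most closely over the 20 arrays, of 11510 compared, were Tbc1d9 (Pearson r = 0.93), Trim24 (0.92), Zfp385b (0.91), Cyth1 (0.89) and Senp2 (0.89). For Dbp, which varied over a range of 0.28 in all, they were Phkg2 (0.75), Mettl2 (0.72), Rundc3a (0.71), Npdc1 (0.70) and Fam89b (0.70). These correlations are descriptions, across arrays that share ages and normalization.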

How the data were processed

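Total RNA of both retinas of each mouse was depleted of ribosomal RNA, amplified as sense-strand cDNA and hybridised to 1 exon array, per the labels' protocols. The deposited values are log2 intensities of exon-level probe sets that the authors obtained by RMA, per the submitters' processing notes. For the version, the probe-set selection and the genome build, the entry is: not given in the sources used here. Because RMA makes the distributions of all arrays alike, it would hide any change common to all genes, and precision is limited by the 4 arrays per age.

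Probe sets with 1 gene symbol in the platform's annotation (179496 of 194293) were summarised per gene by median polish, with old symbols updated through RefSeq. The 25% of genes with the lowest mean level (log2 under 5.61) were left out. The remaining 11836 were fitted with limma 3.58.1 in R 4.3.3, with 1 mean per age over 20 arrays and 15 residual degrees of freedom. Tests were two-sided and p-values were adjusted by Benjamini-Hochberg over all genes, at a threshold of 0.05. The steps were tested on simulated data. Named genes were all members, every called gene of the wider clock list, up to 3 genes of each other list with the largest change at 10 months, and the 5 genes most like Arntl and Dbp. The members and lists were chosen with earlier results of these data known. Alternatives covered the summary of probe sets, the filter, normalization, the model, covariates and each array left out. Each array came from a different mouse, and the main fit did not pair arrays by replicate number. Over 40 same-number pairs of ages the correlation of deviations ran from -0.57 to 0.56 (median -0.03, 10 of 40 over 0.1). These correlations cannot show whether arrays of the same number were processed together. Figures were drawn with matplotlib 3.10.9.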

Additional observations from a re-analysis of the deposited data

How the results depend on the processing

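The 17 changes of clock genes called in any comparison of 2 ages kept their direction under all alternatives run, and 8 kept their call under all of them. Those of Per1, Bhlhe40, Cry1 and Per3 at 10 months against 1 month were among the 8. At 10 months against 1 month, 5 to 6 of the members passed with any 1 array left out, against 6 months 6 in every such fit, and over the 5 ages 6 to 7. At 2 months against 1 month the count of 0 became 1 with brighter probe sets only, with the lowest 50% of genes left out, with trend and robust eBayes or with the replicate block, and 4 with array weights (0 to 1 with 1 array left out). At 4 months the count of 2 became 0 with the brightest probe set, 1 without the filter, with median centring, the replicate block, the Y-linked covariate or the 8 arrays alone, 4 with the 50% filter and 5 with array weights (1 to 2 with 1 array left out). At 6 months the count of 3 became 0 with the brightest probe set and 1 without the filter, with median centring, the replicate block, the Y-linked covariate or any 1 array left out. The cause was not tested. The block changed no count at 10 months. Without 10 months replicate 2, 1 correlation with Arntl passed (0 to 1 over the 20 fits), that of Bhlhe40 with an adjusted permutation p of 0.0410.

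Counts over all genes moved by over 1.5 times in some fits. At 2 months against 1 month the 1008 became 344 with the brightest probe set, 2372 with array weights, 125 with the Y-linked covariate and 535 without 2 months replicate 4. At 4 months the 1795 became 840, 3022 and, with the 8 arrays alone, 1049. At 6 months the 1942 became 953 (brightest probe set) and 2965 (array weights). At 4 months against 2 months the 15 became 4 with the brightest probe set, 9 without the filter, 111 with array weights, 7 with the Y-linked covariate, 5 with 8 arrays and 1 to 12 with 1 array left out. At 6 months against 4 months the 0 became 1 without the filter. At 10 months against 6 months the 2400 became 988 with the brightest probe set, and the 4544 of the F test became 2416.

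Alternatives added after seeing the data were replicates 1 and 4 of 10 months alone, replicate 2 of 10 months alone, and the pigment epithelium or red blood cell level as a covariate. With replicates 1 and 4 alone, the pigment epithelium covariate and the red blood cell covariate, 5, 5 and 7 of the members passed against 1 month. Against 6 months 6, 6 and 6 passed. No count is given for replicate 2 alone, as 1 array has no spread of its own. The red blood cell level rests on Alas2, the 1 gene of its list of 4 on the array. Over all genes, the pigment epithelium covariate gave 1367 calls against 6 months.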
